A study of Mus musculus with 12 samples.

Results

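The 41 genes described here encode the machinery of the G2/M transition and of mitosis. They were the rows of the count table whose gene name was on a list of mitotic kinases and cyclins, spindle, kinetochore and cytokinesis genes, and each of the 41 names matched exactly 1 of the 18903 genes in the table. All 41 were among the 17938 genes that passed the filter on low counts and were tested. They were measured by RNA-seq in primary astrocytes, the star-shaped glia of the brain, cultured from mice at postnatal day 1 (P1), P6 and P8. Each day held 2 libraries labelled WT, from hGFAP-cre::Rack7+/+ mice, and 2 labelled cKO, from hGFAP-cre::Rack7 fl/fl mice, which makes 12 libraries in 6 groups.

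Both genotypes carried the hGFAP-Cre transgene, in which the human GFAP promoter drives Cre from the embryonic neural stem cells of the pallium onward. The floxed allele, made in C57BL/6 zygotes, loses exons of Rack7 (gene symbol Zmynd8) when Cre acts, and Cre leaves the allele whole in cells it does not reach. The brain tissue was stripped of its meninges and dissociated, and the cells were grown on Matrigel in a commercial astrocyte medium, shaken to shed microglia and oligodendrocytes, and grown again until confluent. The day of a library is therefore the day of dissection, and the RNA came from cells grown in culture after it. The labels and the study's methods call the 2 libraries of a group biological replicates. Mice of either sex were used in the study, and the sources used here do not say how many animals gave a library, of which sex, or whether they were pooled, so p-values measure the spread between these libraries.

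Cells enter mitosis when cyclins A and B activate CDK1, a step that the phosphatase CDC25C and the kinases PLK1 and Aurora A promote. Kinetochores then attach chromosomes to spindle microtubules, a checkpoint holds the anaphase-promoting complex (APC/C) with its activator CDC20 in check until every chromosome is attached, and separase, once freed of securin, cuts cohesin. Most of these genes are transcribed in a wave late in the cell cycle, under the DREAM and MuvB complexes with B-MYB and FOXM1, and their mRNA level in bulk RNA follows the share of cells in G2 and M. Astrocytes of the early postnatal cortex still divide, and cultured astrocytes divide until they are confluent.

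The promoters of these genes are shown first, because the wave is tied to a pair of short elements, the cell cycle homology region (CHR) and the CCAAT box bound by NF-Y. Promoters were taken from RefSeq on GRCm38.p6, from 250 bases before the start of a gene to 50 after it, and 34 of the 41 genes had one. Ccna2, Cdc25c, Aurkb, Incenp, Tpx2, Dlgap5 and Kif20a had none in that table. Of the 34 promoters, 26 (76.5%) held a CHR, searched as TTTGAA or TTCGAA on both strands, against 19.4% of all 27025 promoters and 13.9% of the 11548 promoters of tested genes. The CHR strings were thus more frequent in these promoters than in promoters at large. A CCAAT box, searched as CCAAT on both strands, was in 26 (76.5%) against 37.9% and 38.8%. Both elements were in 23 (67.6%), against 7.7% of all promoters and 5.96% of those of tested genes. An E2F element was in 4 (11.8%) against 5.72% and 9.36%. The search for it, on both strands, took TTTGGCG as the first form, then the form TTTCCCG, and as the last form TTTCGCG. The letter strings differ, but matches of different strings may share bases. Below are the 200 bases before the start, 5′ to 3′ in the direction of transcription, for 5 genes. The choice began with the 8 genes of highest mean CPM that have both elements in the promoter and values in every library further on, and kept those in which both lie whole in this stretch. Other members, among them Espl1, Kif11 and Ube2c, also hold both there and are not shown. Capitals mark the matches of CHR and CCAAT on either strand.
Mki67: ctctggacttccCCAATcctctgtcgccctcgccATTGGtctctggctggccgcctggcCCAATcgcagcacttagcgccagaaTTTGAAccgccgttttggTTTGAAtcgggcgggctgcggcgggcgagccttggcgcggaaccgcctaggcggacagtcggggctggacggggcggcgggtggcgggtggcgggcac
Top2a: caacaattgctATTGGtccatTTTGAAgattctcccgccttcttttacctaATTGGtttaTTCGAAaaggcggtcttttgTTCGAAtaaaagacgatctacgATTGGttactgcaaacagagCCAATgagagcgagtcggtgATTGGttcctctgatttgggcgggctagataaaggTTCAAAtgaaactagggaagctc
Cdk1: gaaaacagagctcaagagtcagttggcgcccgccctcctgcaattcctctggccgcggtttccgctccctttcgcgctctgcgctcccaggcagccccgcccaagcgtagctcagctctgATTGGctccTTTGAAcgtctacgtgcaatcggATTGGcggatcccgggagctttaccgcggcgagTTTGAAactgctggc
Bub1b: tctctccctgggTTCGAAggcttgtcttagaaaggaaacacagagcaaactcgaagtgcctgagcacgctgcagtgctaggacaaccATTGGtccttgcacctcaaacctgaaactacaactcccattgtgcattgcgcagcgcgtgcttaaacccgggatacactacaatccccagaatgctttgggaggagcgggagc
Cdc20: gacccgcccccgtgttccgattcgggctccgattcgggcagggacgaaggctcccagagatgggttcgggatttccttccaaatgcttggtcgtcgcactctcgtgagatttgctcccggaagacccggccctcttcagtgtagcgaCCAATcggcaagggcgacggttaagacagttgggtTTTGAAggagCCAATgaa

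The stretch of Mki67 is chr7:135716380-135716579 on the minus strand, with 2 CHR and 3 CCAAT matches. That of Top2a, chr11:99024190-99024389 on the minus strand, held 4 CHR and 5 CCAAT matches. For Cdk1 it is chr10:69352913-69353112 on the minus strand with 2 and 2, for Bub1b chr2:118598011-118598210 on the plus strand with 1 and 1, and for Cdc20 chr4:118437344-118437543 on the minus strand with 1 and 2. Each of these stretches held both elements before the start because the choice required it. Of the genes that the choice left out, Cenpf, Prc1 and Hmmr have their CHR match at base 2, -5 and 8. The CHR match shown for Bub1b, at base -188, lies before its CCAAT match at -113, and a further CHR match at base 40 is outside the stretch. Over the 34 promoters there were 35 CHR matches, whose median position was base 2 counted from the start, and 65 CCAAT matches, whose median position was base -65. Neighbouring CCAAT matches in a promoter began a median of 33 bases apart, over 39 pairs, of which 11 were 30 to 36 bases apart. The median distance from a CHR back to the nearest CCAAT match before it was 32.5 bases, over 28 matches, of which 7 were at 30 to 40. The distances thus varied widely around both medians. By these medians the CCAAT boxes lay before the CHR. The 23 genes with both elements had a median log2 fold change at P6, labelled cKO over labelled WT, of -0.50 (from -0.77 to 0.03), and the 11 with a promoter but without both had -0.41 (from -0.73 to 0.22).

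**Figure D1:**
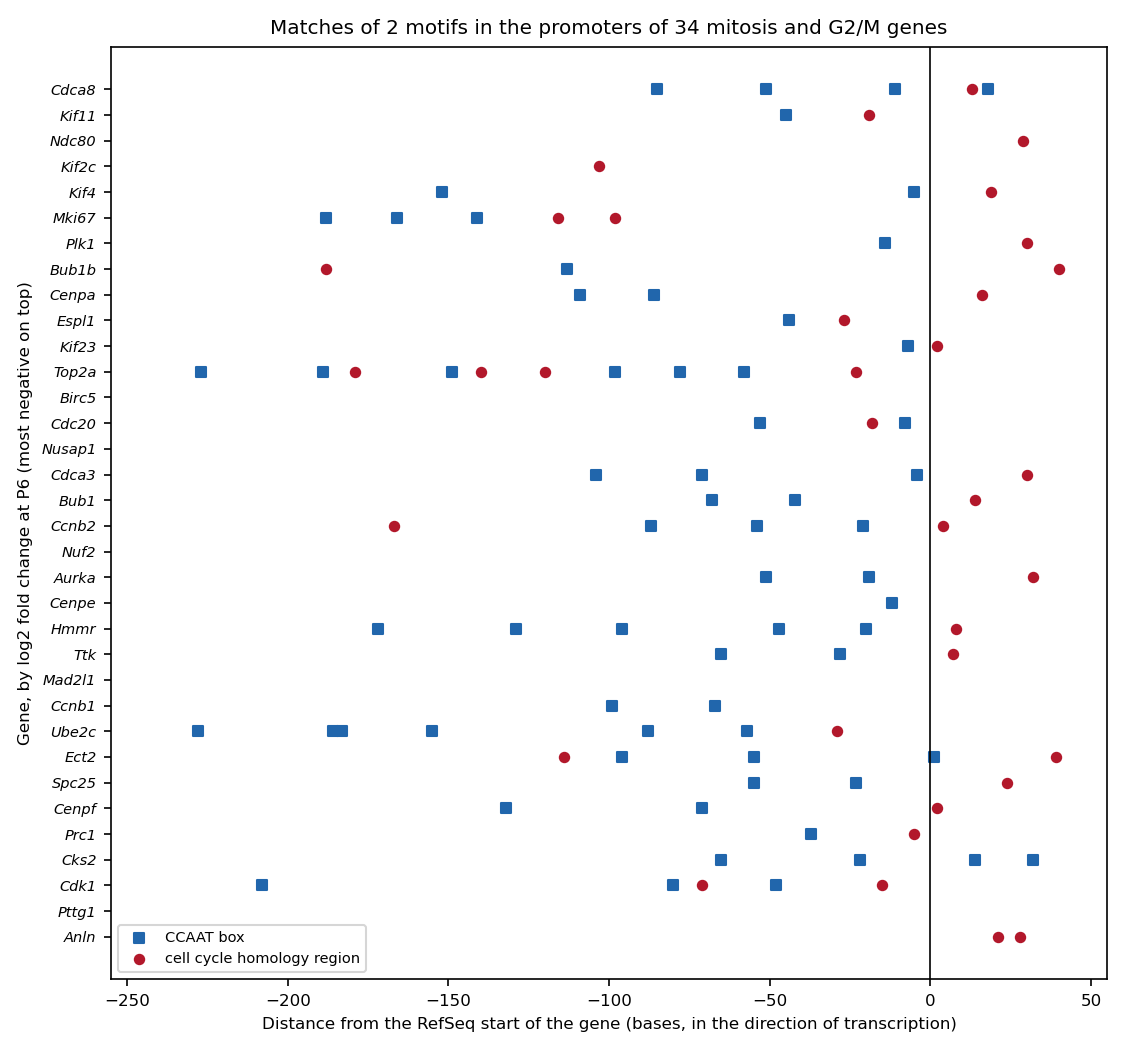
Position of each CHR match (first base) and each CCAAT match in the 34 RefSeq promoters, in bases from the start of the gene, with genes ordered by their log2 fold change at P6. Of the 34 promoters, 26 hold a CHR and 26 a CCAAT box, and the CHR matches gather around the start while the CCAAT matches lie before it.

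Totals of the 12 libraries ran from 54413504 to 89183250 counts, and the members together took between 66759 and 120257 of them, so counting error was small beside the spread between replicates. Zmynd8 was higher in every library labelled cKO (213 and 216 CPM at P1, 242 and 230.5 at P6, 160.4 and 171 at P8) than in any labelled WT (136 and 136, 114 and 116, 99.98 and 104), where CPM are counts scaled to a common library size with TMM factors. This runs against the direction of the label, but the count covers the whole gene, including exons outside the deleted part, so it checks nothing about the deletion. RACK7 protein, which the study examined by immunoblot in primary astrocytes, was not analysed here, and the groups are called by their labels throughout. Of 11 astrocyte markers, 10 were in the table and none of those was at 0 in any group, with Gfap at a mean of 179.9 to 569 CPM per group and S100b, at 1.03 to 18.4 CPM, the lowest.

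Per length of exon, the members spanned 0.781 to 18.8 CPM per kilobase on average over the libraries. Mki67, the proliferation antigen that coats mitotic chromosomes, was first at 18.8 CPM per kilobase (range over libraries 14.8 to 27.3). Top2a, the topoisomerase that untangles sister chromatids, followed at 17.4 (13.3 to 22.1), an order whose ranges overlapped. Cks2, a small CDK-binding subunit, was at 15.4, Incenp at 13.3, Pttg1 at 12.4 and Ccna2 at 12.2 CPM per kilobase. At the other end were Espl1 at 2.003, Ndc80 at 1.88, Ttk at 1.82 and Cdc25c at 0.781 CPM per kilobase. Positions and lengths are those of GENCODE vM21 on GRCm38, where the genes lie on 17 chromosomes. On that annotation 21 of the 41 overlap another gene, 8 of them on the same strand, and Ccnb1, Ccnb2 and Kif4 have a named pseudogene, so reads could have been given to either copy or either neighbour.

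**Figure D2:**
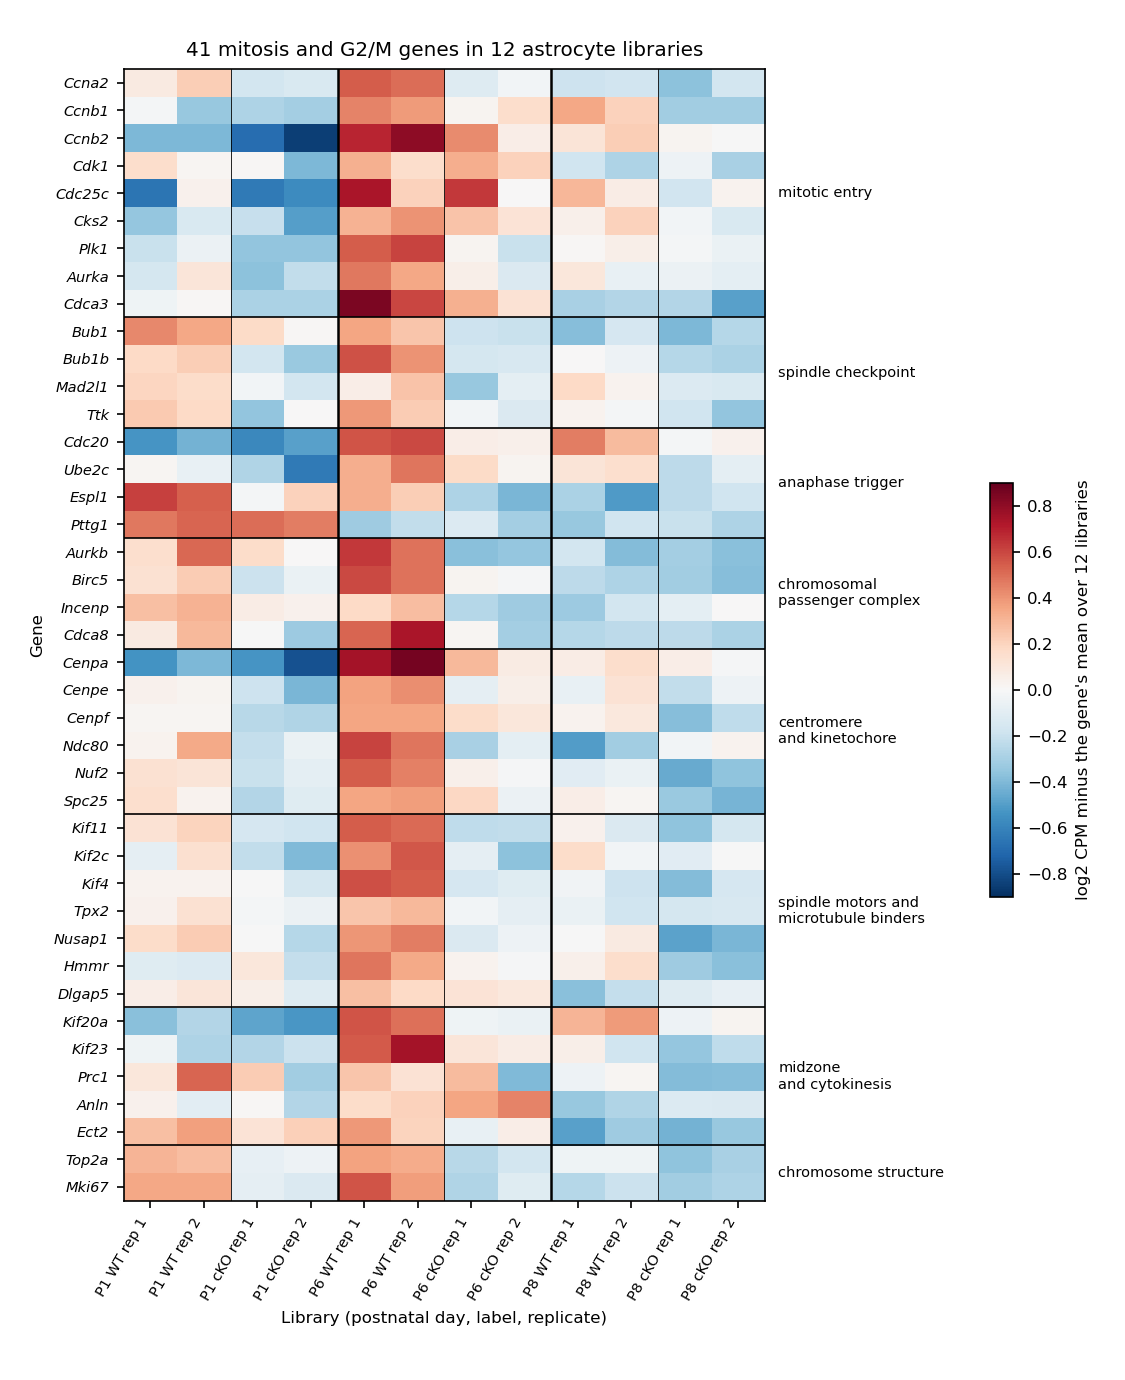
Each row is a gene and each column a library, and the colour is the log2 CPM minus that gene's mean over the 12 libraries, with genes grouped by role. The P6 libraries labelled WT are the highest columns for most rows.

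Summed over the 41 genes, the P6 libraries labelled WT stood above the other 10, at 1762 and 1714 CPM. The P6 libraries labelled cKO were at 1279 and 1266 CPM, the P1 libraries at 1449 and 1478 with the label WT and 1237 and 1172 with the label cKO, and the P8 libraries at 1238 and 1252 and at 1107 and 1139. At each day both libraries labelled cKO were thus below both labelled WT. Single genes followed the mean of the other 40 over the 12 libraries to different degrees, with a Pearson r from -0.252 (Pttg1) to 0.947, a median of 0.792 and 20 genes above 0.8, as a description over libraries that share their groups.

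The main comparison asked how the labelled genotypes differed at each day. A gene was called where the Benjamini-Hochberg adjusted p of edgeR's quasi-likelihood test was below 0.05 and the fold change at least 1.5, and the counts at the same adjusted p with no condition on the fold are given beside it, a rule added after the values were seen. The median of the members was furthest from 0 at P6. There, 12 of the 41 genes (29.3%) were called lower with the label cKO and 0 higher, against 6.38% lower and 7.16% higher of all genes tested. By adjusted p alone 30 of the 41 were lower, against 12.5% of all genes, and 0 were higher against 13.2%. The mitotic genes were thus called lower more often than genes at large, in 1 direction only. Both cKO libraries lay below both WT libraries for 36 of the 41, against 29.3% of all genes. The median log2 fold change of the members was -0.50 and that of all genes 0. Of the called genes recomputed with each library left out, Ccna2, Bub1b, Mki67 and Espl1 dropped under the fold of 1.5 without P6 WT replicate 1, Ccna2 and Mki67 also without P6 cKO replicate 1 and Espl1 without P6 cKO replicate 2, while their adjusted p stayed between 0.000794 and 0.0266.

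At P1, 0 of the 41 genes were called in either direction, against 0.892% lower and 4.01% higher of all genes. By adjusted p alone 6 were lower, against 2.94% of all genes, and none higher, against 6.54%. This count was 2 without P1 WT replicate 2 or on the P1 libraries alone, 3 without P1 WT replicate 1 or P1 cKO replicate 2, 10 with library totals and 12 in DESeq2. The 6 were Espl1, Mki67, Bub1b, Top2a, Ccna2 and Cenpf, with log2 fold changes from -0.48 to -0.28. DESeq2 also called 0 at the fold of 1.5, and 24 of the 41 had an unadjusted edgeR p below 0.05 with a lower value, against 9.08% of all genes. Leaving out either P1 library labelled cKO gave 1 call, lower. In the main fit the differences at P1 were thus small, with log2 fold changes from -0.48 to 0.07, all under the fold of 1.5. The libraries did not overlap, cKO below WT, for 30 of the 41, against 25.4% of all genes, and the median was -0.27 with all genes at 0.

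At P8, 1 of the 41 genes was called lower, Ccnb1, and 0 higher, against 8.37% and 11.2% of all genes. By adjusted p alone 9 were lower, against 14.8% of all genes, and 1 higher, Ndc80, against 19.6%. So at P8 the share of members lower was below that of all genes by the first rule (2.44%) and above it by adjusted p alone (22%). The libraries did not overlap for 23 genes (56.1%) with cKO below and 5 (12.2%) with cKO above, against 33.8% and 36.9% of all genes. The median of the members was -0.16, with all genes at 0.01. The fitted value was below 0 at all 3 days for 32 of the 41 genes (78.0%), against 15% of all genes, and above 0 at all 3 for none, against 17.1%. By adjusted p alone, 6 were lower at both P1 and P6, against 1.18% of all genes, and 7 at both P6 and P8, against 5.73%. Top2a and Cenpf were lower at all 3 days, as were 0.44% of all genes.

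**Figure D3:**
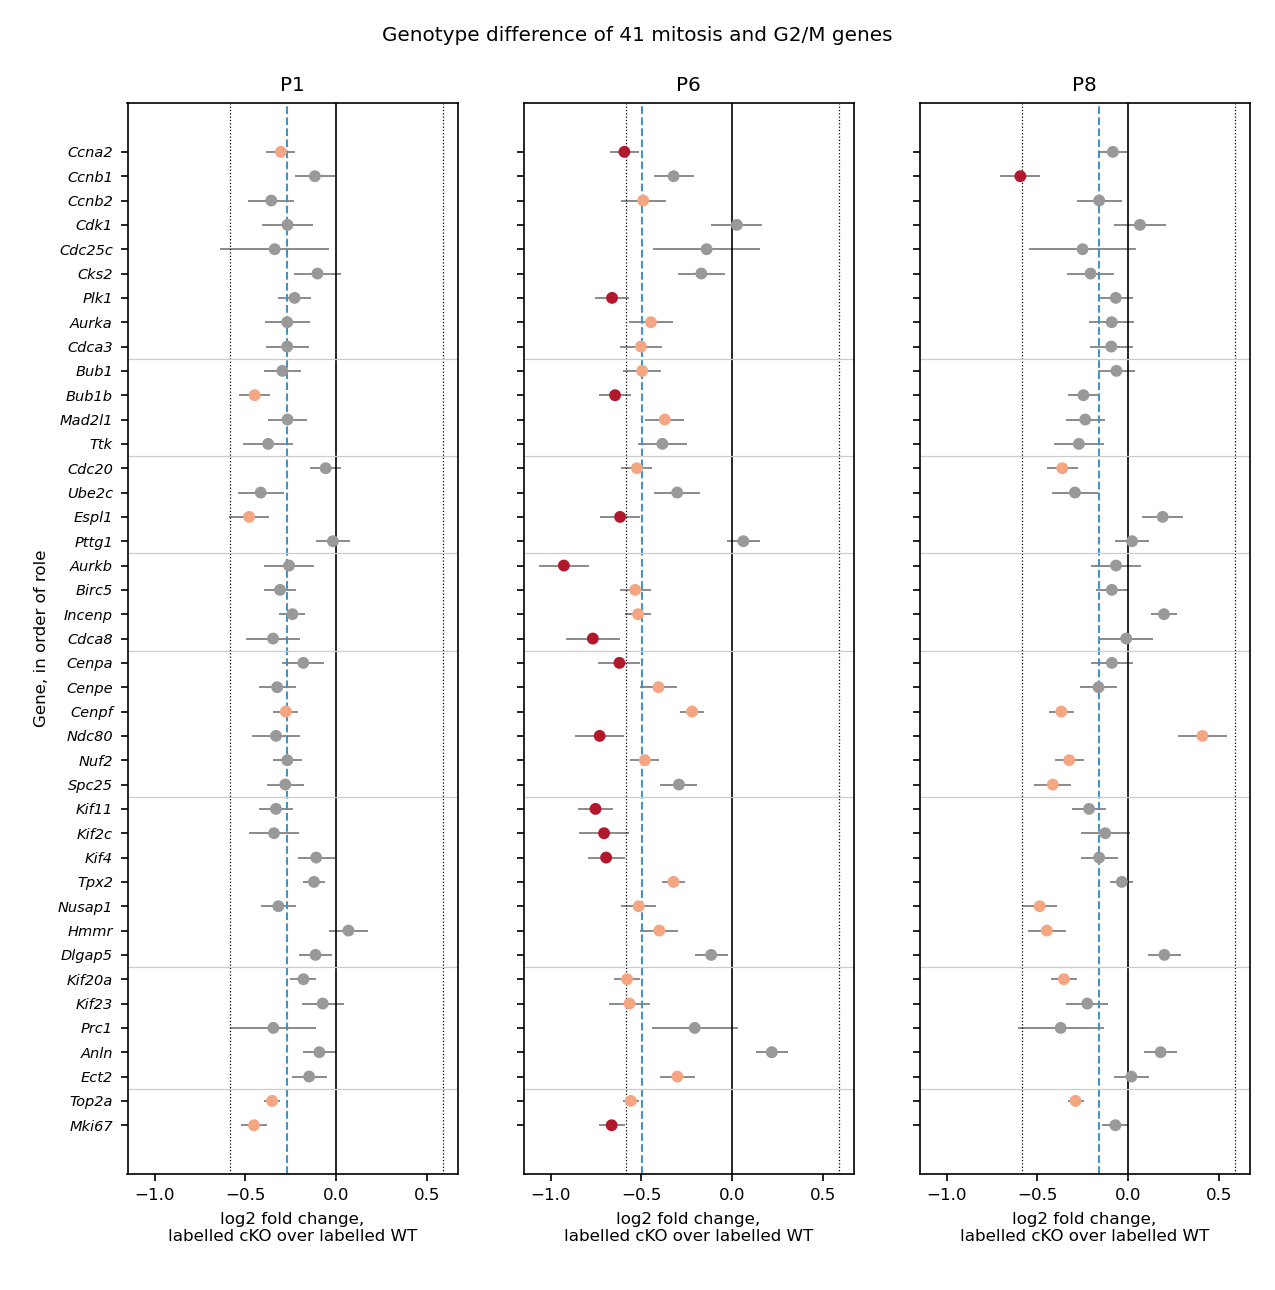
Log2 fold change, labelled cKO over labelled WT, of each of the 41 genes at P1, P6 and P8, with bars of 1 standard error of the edgeR fit. Dark red points mark called genes, light orange points those past the adjusted p alone and grey points the rest. Dotted lines mark a fold of 1.5 and the dashed line the median of the members. Of the 41 genes, 38 lie below 0 at P6, 40 at P1 and 33 at P8.

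Among the 9 genes of mitotic entry, 2 were called lower at P6 and 5 passed by adjusted p alone, with a median of -0.45. Ccna2, cyclin A2, was at 71.1 and 69.2 CPM in the P6 libraries labelled WT and at 45.0 and 48.0 in those labelled cKO. At P1 the values were 51.5 and 56.8 against 43.4 and 44.3 CPM, and at P8 42.8 and 43.2 against 37.7 and 43.4. The groups stood apart at P1 and P6 and overlapped at P8. The log2 fold change was -0.59 ± 0.08 (SE, edgeR adjusted p = 0.000573) at P6, -0.31 ± 0.08 (adjusted p = 0.0461) at P1 and -0.08 ± 0.08 (adjusted p = 0.473) at P8.

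Ccnb1, cyclin B1, was called at P8, where it was at 31.4 and 28.4 CPM with the label WT and at 19.8 and 19.8 with the label cKO. It was at 33.6 and 32.1 against 25.1 and 27.4 CPM at P6, and at 24.3 and 19.4 against 20.3 and 19.96 at P1, where the groups overlapped. Its log2 fold change was -0.59 ± 0.11 (edgeR adjusted p = 0.00256) at P8 and -0.32 ± 0.11 (adjusted p = 0.0601) at P6. Without P8 WT replicate 1 the P8 value was -0.52 and the gene was no longer called. Cdk1, the kinase that both cyclins activate, passed no rule at any day. Its CPM at P6 was 41.2 and 36.9 with the label WT and 41.4 and 38.0 with the label cKO, overlapping. It was at 36.7 and 33.4 against 33.3 and 24.9 at P1 and at 29.1 and 27.2 against 32.0 and 27.0 at P8. In order of day its log2 fold changes were -0.27 ± 0.14, 0.03 ± 0.14 and 0.06 ± 0.14, with adjusted p of 0.324, 0.935 and 0.775, and the sign at P6 turned to -0.012 when libraries were scaled by their totals. Plk1, the Polo kinase, was the other called gene of the group at P6 (-0.66 ± 0.09, edgeR adjusted p = 0.000706), while Cks2 (-0.17) and Cdc25c (-0.14) passed no rule there.

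The 4 genes of the spindle checkpoint had a median of -0.44 at P6, with 1 called and 3 past the adjusted p alone. Bub1b, which encodes the checkpoint kinase BUBR1, was at 38.4 and 34.02 CPM in the P6 libraries labelled WT and at 23.0 and 23.2 in those labelled cKO. At P1 it was at 29.2 and 30.03 against 22.9 and 20.5 CPM, and at P8 at 25.8 and 24.9 against 21.6 and 21.2, so the groups did not overlap at any day. The log2 fold change was -0.45 ± 0.09 (edgeR adjusted p = 0.0111) at P1, -0.65 ± 0.09 (adjusted p = 0.000512) at P6 and -0.25 ± 0.09 (adjusted p = 0.0519) at P8. Mad2l1, which holds CDC20 inactive, was at 29.0 and 33.2 CPM against 21.9 and 26.2 at P6. It was at 31.8 and 31.2 against 27.4 and 24.8 CPM at P1 and at 31.5 and 28.4 against 25.5 and 25.3 at P8, again without overlap. Only its P6 difference passed the adjusted p alone, at -0.37 ± 0.11 (adjusted p = 0.0329), and the values at P1 and P8 were -0.27 and -0.24. The kinase genes Bub1 (-0.50, adjusted p = 0.0067) and Ttk (-0.38, adjusted p = 0.0691) completed the group at P6.

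The 4 genes of the anaphase trigger moved apart from each other. Cdc20, the activator of the APC/C, was at 31.1 and 31.7 CPM in the P6 libraries labelled WT and at 21.9 and 21.7 in those labelled cKO. At P8 it was at 29.0 and 25.6 against 20.8 and 21.6 CPM, and at P1 it was about as low in both labels, at 14.6 and 15.7 against 14.1 and 15.0. The log2 fold change was -0.06 ± 0.09 at P1 (edgeR adjusted p = 0.783), -0.53 ± 0.09 at P6 (adjusted p = 0.00175) and -0.36 ± 0.09 at P8 (adjusted p = 0.00953), both later values under the fold of 1.5.

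Espl1, separase, was called lower at P6, at 21.3 and 19.8 CPM against 14.0 and 12.8. It was at 26.0 and 24.7 against 16.8 and 19.6 CPM at P1, and the order turned at P8, at 13.9 and 11.9 with the label WT and 14.4 and 15.0 with the label cKO. Its log2 fold changes were -0.48 ± 0.11 (edgeR adjusted p = 0.0273), -0.62 ± 0.11 (adjusted p = 0.00316) and 0.19 ± 0.11 (adjusted p = 0.236). Pttg1, securin, which binds and inhibits separase, passed no rule between the labels at any day. Its CPM was 33.2 and 34.5 against 33.9 and 33.0 at P1, 19.2 and 20.6 against 22.04 and 19.4 at P6. At P8 the values were 18.9 and 21.2 against 20.9 and 19.8. The groups overlapped at every day, with log2 fold changes of -0.02, 0.06 and 0.02, each with a standard error of 0.09, and the sign at P8 turned to -0.040 with scaling by library totals. Ube2c, the E2 enzyme of the APC/C, was at -0.30 ± 0.13 (adjusted p = 0.118) at P6.

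All 4 genes of the chromosomal passenger complex, which corrects faulty attachments and then steers cytokinesis, passed the adjusted p alone at P6, 2 of them were called, and their median was -0.65. Aurkb, the kinase of the complex, had the largest fall of the 41 genes, from 18.9 and 17.0 CPM with the label WT to 9.31 and 9.52 with the label cKO. It overlapped at P1, at 13.4 and 17.3 against 13.6 and 12.1 CPM, and at P8, at 10.8 and 9.25 against 9.79 and 9.33. Its log2 fold change was -0.93 ± 0.14 (edgeR adjusted p = 0.00108) at P6, -0.26 ± 0.14 (adjusted p = 0.33) at P1 and -0.07 ± 0.14 (adjusted p = 0.759) at P8.

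Cdca8, which encodes the Borealin subunit, was at 22.9 and 26.6 CPM against 16.1 and 12.9 at P6. At P1 it was at 16.8 and 19.6 against 15.9 and 12.7 CPM, and at P8 the libraries overlapped at 13.4 and 13.5 against 13.5 and 13.1. The log2 fold change was -0.77 ± 0.15 (edgeR adjusted p = 0.00434) at P6, -0.35 ± 0.15 (adjusted p = 0.211) at P1 and -0.01 ± 0.15 (adjusted p = 0.966) at P8. Birc5, survivin, was at 26.7 and 24.8 against 18.0 and 17.5 CPM at P6, at 19.5 and 20.8 against 15.5 and 17.0 at P1, and at 15.0 and 14.6 against 14.3 and 13.6 at P8. The groups did not overlap at any day, and only the P6 difference passed, by adjusted p alone, at -0.53 ± 0.09 (adjusted p = 0.0016). Incenp, the scaffold of the complex, stood below with the label cKO at P6 and above at P8. It was at 64.5 and 69.0 against 47.7 and 45.6 CPM at P6 and at 45.5 and 50.9 against 53.4 and 57.0 at P8, after 68.8 and 70.7 against 59.5 and 58.5 at P1. Its log2 fold changes were -0.24 ± 0.07 (adjusted p = 0.0717), -0.52 ± 0.07 (adjusted p = 0.000641) and 0.20 ± 0.07 (adjusted p = 0.062) at P1, P6 and P8.

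Of the 6 centromere and kinetochore genes, 2 were called lower at P6 and 5 passed the adjusted p alone, with a median of -0.44. Ndc80, the microtubule-binding arm of the kinetochore, was at 18.1 and 16.6 CPM with the label WT and at 9.73 and 11.2 with the label cKO at P6. It was at 12.2 and 15.1 against 10.3 and 11.4 CPM at P1. At P8 the order was the reverse, with the label WT at 8.39 and 9.59 CPM and the label cKO at 11.7 and 12.2. No other member was higher with the label cKO by adjusted p at any of the 3 days. The log2 fold changes of Ndc80 were -0.33 ± 0.13 (edgeR adjusted p = 0.191), -0.73 ± 0.13 (adjusted p = 0.00348) and 0.41 ± 0.13 (adjusted p = 0.043), the last not past the adjusted p with DESeq2 size factors, with library totals or on the P8 libraries alone. It was also not past it in 8 of the 12 fits that left out 1 library (adjusted p from 0.0522 to 0.215), namely those without either library of P1 cKO, P6 WT, P8 WT or P8 cKO. Its complex partners were lower with the label cKO at P8, Nuf2 at -0.33 (adjusted p = 0.0116) and Spc25 at -0.42 (adjusted p = 0.0115).

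Cenpa, the histone variant that marks centromeres, was the other called gene at P6 (-0.62 ± 0.12, edgeR adjusted p = 0.00365). Cenpe, a kinetochore motor, was at 59.1 and 61.4 CPM against 43.4 and 47.5 at P6, at 47.1 and 46.7 against 40.3 and 34.5 at P1, and at 43.8 and 50.1 against 39.3 and 44.5 at P8, where the groups overlapped. Its log2 fold change was -0.41 ± 0.10 at P6 (adjusted p = 0.017), -0.33 at P1 (adjusted p = 0.0887) and -0.16 at P8 (adjusted p = 0.262). Cenpf, a large kinetochore protein of the G2 and M phases, was lower with the label cKO by a smaller and steadier step. It was at 39.7 and 39.5 against 32.8 and 32.5 CPM at P1, at 49.9 and 50.1 against 43.8 and 42.0 at P6 and at 39.96 and 41.8 against 29.996 and 33.3 at P8. Its log2 fold changes were -0.28 ± 0.07, -0.22 ± 0.07 and -0.37 ± 0.07, each past the adjusted p alone (0.0345, 0.0408 and 0.00249) and none past the fold.

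The 7 genes of spindle motors and microtubule binders had a median of -0.52 at P6, with 3 called and 6 past the adjusted p alone. The called ones were the kinesin genes Kif11 (-0.75 ± 0.09, edgeR adjusted p = 0.000343), whose product pushes spindle poles apart, Kif2c (-0.71 ± 0.14, adjusted p = 0.00437), a microtubule depolymerase, and Kif4 (-0.69 ± 0.10, adjusted p = 0.000911), a chromosome-bound motor. Tpx2, which activates Aurora A on the spindle, was at 61.7 and 63.7 CPM against 51.0 and 49.2 at P6. It was at 53.3 and 57.1 against 51.3 and 50.2 CPM at P1 and at 49.7 and 45.9 against 46.4 and 46.9 at P8, where the groups overlapped. The P6 log2 fold change of -0.32 ± 0.06 (adjusted p = 0.00482) was under the fold, and those at P1 and P8 were -0.12 and -0.04.

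Hmmr, a hyaluronan receptor that also binds spindle microtubules, was at 40.2 and 36.6 CPM against 29.5 and 28.6 at P6 and at 29.7 and 32.1 against 23.1 and 22.2 at P8. At P1 its libraries overlapped, at 26.7 and 26.5 with the label WT and 30.9 and 24.8 with the label cKO. The log2 fold change was 0.07 ± 0.11 (edgeR adjusted p = 0.797) at P1, -0.40 ± 0.11 (adjusted p = 0.021) at P6 and -0.45 ± 0.11 (adjusted p = 0.00946) at P8. Dlgap5, a spindle protein also called HURP, was at -0.12 ± 0.09 (adjusted p = 0.418) at P6, the only gene of the group that passed no rule there. Nusap1, which bundles microtubules, passed the adjusted p alone at P6 (-0.52) and at P8 (-0.49, adjusted p = 0.00359).

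Among the 5 genes of the midzone and cytokinesis, 0 were called at P6 and 3 passed the adjusted p alone. Anln, anillin, the scaffold of the contractile ring, had the highest fitted log2 fold change of the 41 at P6. It was at 69.6 and 71.6 CPM with the label WT and at 79.5 and 84.6 with the label cKO, without overlap but with a log2 fold change of 0.22 ± 0.09 (edgeR adjusted p = 0.113). At P8 it was at 49.0 and 51.4 against 56.9 and 56.7 CPM (0.18 ± 0.09, adjusted p = 0.166), and at P1 the groups overlapped at 63.8 and 58.1 against 62.5 and 51.8. Prc1, which crosslinks midzone microtubules, differed widely between replicates. It was at 45.7 and 42.2 against 46.9 and 29.2 CPM at P6, at 41.2 and 55.5 against 45.1 and 31.0 at P1 and at 37.4 and 38.9 against 29.4 and 29.5 at P8. Its log2 fold change at P6 was -0.21 ± 0.24 (adjusted p = 0.595), and it became 0.09 without P6 cKO replicate 2. The kinesin genes Kif20a (-0.58 ± 0.07, adjusted p = 0.000317) and Kif23 (-0.57 ± 0.12, adjusted p = 0.00602) lay just under the fold at P6.

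Both genes of chromosome structure were lower with the label cKO at P1 and P6 by adjusted p alone. Mki67 was at 275 and 239.8 CPM in the P6 libraries labelled WT and at 153 and 171 in those labelled cKO. At P1 it was at 235 and 235 against 175 and 169 CPM, and at P8 the labels came close, at 155 and 162 against 149 and 153. Its log2 fold change was -0.45 ± 0.07 (edgeR adjusted p = 0.00433), -0.66 ± 0.07 (adjusted p = 0.000142) and -0.07 ± 0.07 (adjusted p = 0.503) in order of day. Top2a kept a difference at P8, at 151 and 151 against 120.3 and 126 CPM, after 191 and 188 against 147 and 149.7 at P1 and 199 and 195 against 129.95 and 138 at P6. Its log2 fold changes were -0.35 ± 0.04 (adjusted p = 0.0011), -0.56 ± 0.04 (adjusted p = 2e-05) and -0.29 ± 0.04 (adjusted p = 0.000796), all under the fold of 1.5 and none with overlapping libraries.

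**Figure D4:**
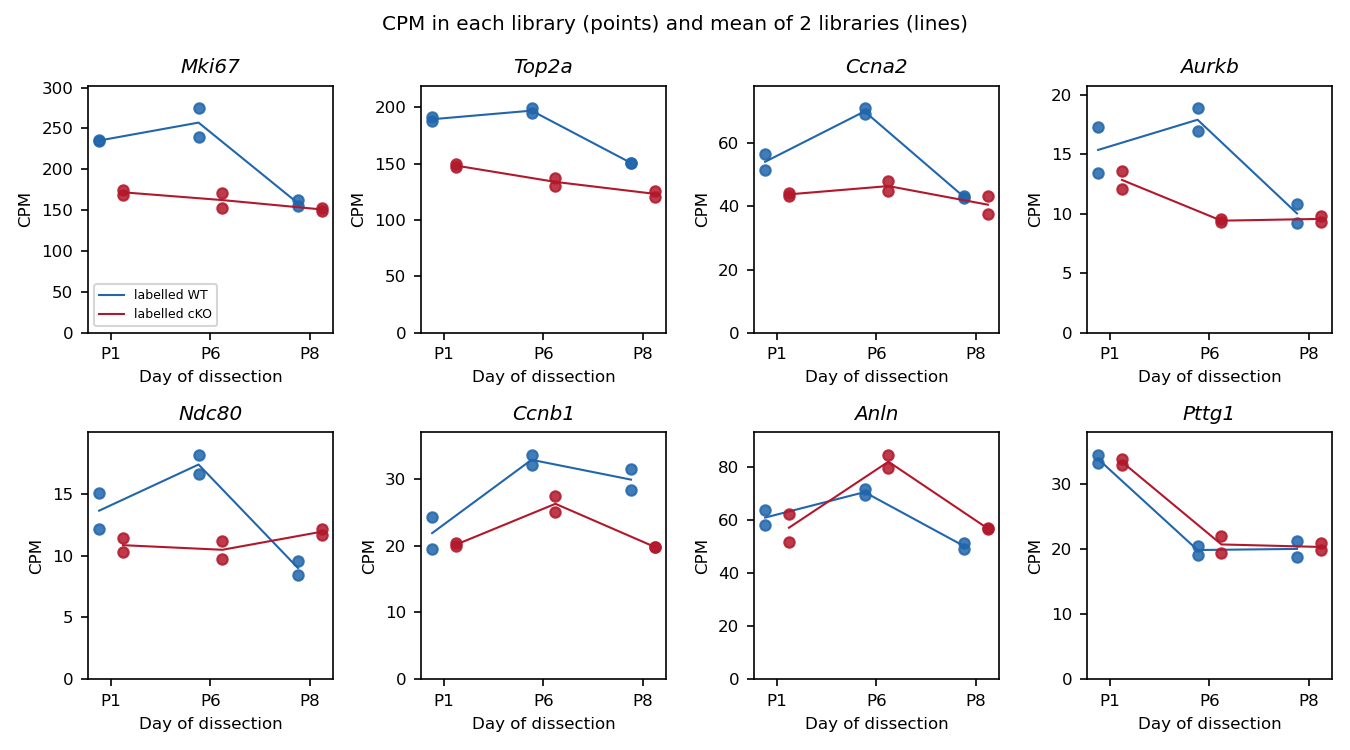
CPM of selected members in each library (points) and the mean of the 2 libraries of each group (lines) at P1, P6 and P8, with an axis from 0. The libraries labelled WT of Aurkb and Ndc80 stand furthest above those labelled cKO at P6, Pttg1 falls from P1 to P6 in both labels, and Anln lies higher with the label cKO at P6.

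The steps between days within a label were compared next. The P6 libraries labelled WT enter the P6 genotype comparison, both steps of the label WT and the terms below that involve P6, so these results are not separate sources, and their values are given side by side. With the label WT, 9 of the 41 genes were called higher at P6 than at P1 and 1 lower, against 12.2% and 10.9% of all genes, and by adjusted p alone 23 were higher against 20.7% and 1 lower against 19.2%. The 23 became 14 without P1 WT replicate 1 and 15 with library totals. The largest rises were Cenpa (log2 fold change 1.28 ± 0.12, edgeR adjusted p = 2.46e-05), Ccnb2 (1.15 ± 0.13, adjusted p = 7.91e-05) and Cdc20 (1.05 ± 0.09, adjusted p = 1.17e-05), and the fall was Pttg1 (-0.77 ± 0.09, adjusted p = 0.000152). The other called genes were Kif20a, Kif23, Cdca3, Plk1, Cks2 and Ccnb1, so that 5 of the 9 genes of mitotic entry were among them. The median was 0.36 with TMM and 0.25 with scaling by library totals, where that of all genes was -0.11.

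From P6 to P8 the direction turned with the label WT, and 12 of the 41 genes were called lower and 0 higher, against 10.3% and 8.66% of all genes. By adjusted p alone 31 were lower and 0 higher, against 19% and 16.2% of all genes, and the median was -0.47. Cdca3 fell the most (-1.01 ± 0.12, edgeR adjusted p = 0.000168), followed by Ndc80 (-0.95 ± 0.14, adjusted p = 0.000572), Cdca8 (-0.88), Aurkb (-0.84) and Birc5 (-0.80). In the chromosomal passenger complex 3 of 4 genes were called lower in this step and the fourth, Incenp, passed the adjusted p alone (-0.47). Cdc20 (-0.20), Kif20a (-0.19), Ccnb1 (-0.14), Mad2l1 (-0.06) and Pttg1 (0.01) passed neither rule.

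With the label cKO, 4 genes were called higher from P1 to P6 and 1 lower, against 11% and 10.4% of all genes. The 4 were Ccnb2 (log2 fold change 1.02 ± 0.13, edgeR adjusted p = 0.000207), Cdc25c (0.96 ± 0.30, adjusted p = 0.0319), Cenpa (0.84 ± 0.12, adjusted p = 0.000442) and Cdc20 (0.59 ± 0.09, adjusted p = 0.00062), and Pttg1 again fell (-0.69 ± 0.09, adjusted p = 0.000343). By adjusted p alone 13 were higher and 5 lower, against 19.7% and 18.7% of all genes, and the median was 0.09. The 13 became 7 without P1 cKO replicate 2 or P6 cKO replicate 1 and 8 on the compared libraries alone, and the 5 became 3 there and without any 1 of the 4 P1 and P6 libraries labelled cKO. The number called higher was 2 without P6 cKO replicate 1, 7 without P6 cKO replicate 2 and 2 on the compared libraries alone. With scaling by library totals the 13, 5 and 0.09 became 10, 8 and -0.02, while the median of all genes moved to -0.11. From P6 to P8 only Cdca3 was called lower (-0.60 ± 0.12, adjusted p = 0.00295) and 0 higher, against 12.2% and 11.9% of all genes, with 12 lower and 1 higher, Incenp, by adjusted p alone, against 19.2% and 20% of all genes. The 12 became 7 without either P8 cKO library and 8 without P6 cKO replicate 2, and the 1 higher was lost without P6 cKO replicate 2 or P8 cKO replicate 2 and on the compared libraries alone. The call of Cdca3 was lost without P6 cKO replicate 1 or P8 cKO replicate 2, and 2 genes were called without P6 cKO replicate 2.

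Whether the genotype difference itself changed between days was tested as an interaction term, called by adjusted p alone. Between P6 and P8 it rose for 15 of the 41 genes and fell for 0, against 12.6% and 8.83% of all genes. The largest were Ndc80 (1.14 ± 0.19, edgeR adjusted p = 0.00256), Aurkb (0.86 ± 0.20, adjusted p = 0.0132), Espl1 (0.81 ± 0.16, adjusted p = 0.00602), Cdca8 (0.76 ± 0.21, adjusted p = 0.0301) and Incenp (0.72 ± 0.10, adjusted p = 0.000957). For all 15 the log2 fold change at P6, which the term subtracts, was below 0, as it was for 38 of the 41 members. Fitted on the libraries of these groups alone, 9 genes were called, and there were 9 without P6 WT replicate 1 or without P6 cKO replicate 2, 8 without P8 WT replicate 2 and 7 without P8 cKO replicate 2.

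Between P1 and P6 the term fell for 3 genes and rose for 0, against 8.19% and 7.12% of all genes, a share of members (7.32%) near the background. These were Kif4 (-0.58 ± 0.14, edgeR adjusted p = 0.0242), Cdc20 (-0.47 ± 0.12, adjusted p = 0.0317) and Kif20a (-0.40 ± 0.10, adjusted p = 0.0277). The count was 0 without P1 WT replicate 1 or without P6 WT replicate 1, 1 without P1 cKO replicate 1, P6 WT replicate 2 or either P6 cKO library, and 6 in DESeq2. Between P1 and P8 it rose for 4 genes, Ndc80 (0.74), Espl1 (0.67), Incenp (0.44) and Mki67 (0.38), and fell for 1, Hmmr (-0.52 ± 0.15, adjusted p = 0.0325), against 14% and 11.7% of all genes. The 4 became 2 without P1 WT replicate 2, P8 WT replicate 1 or P8 cKO replicate 2, and the Hmmr term was lost without P1 WT replicate 2, P1 cKO replicate 1, P8 WT replicate 2 or either P8 cKO library.

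The transcription factors of the wave did not pass together. Foxm1 was at 35.3 and 31.4 CPM in the P6 libraries labelled WT and at 25.2 and 17.6 in those labelled cKO, a log2 fold change of -0.64 ± 0.36 (edgeR adjusted p = 0.239). Its P8 libraries labelled WT, at 24.3 and 9.34 CPM, differed widely, against 19.0 and 23.1 with the label cKO, and at P1 it was at 25.4 and 24.4 against 21.4 and 21.2. Mybl2, B-MYB, was lower at P6 by adjusted p alone, at 12.7 and 13.7 CPM against 9.82 and 9.43 (-0.45 ± 0.10, adjusted p = 0.0106). Its libraries were at 13.7 and 14.1 against 11.5 and 12.6 CPM at P1 and overlapped at P8, at 8.06 and 7.65 against 7.82 and 8.86. Of the 21 genes of DREAM, MuvB, E2F and NF-Y with these, 0 were called at any of the 3 days. At P6, 7 were lower and 1 higher by adjusted p alone, against 12.5% and 13.2% of all genes.

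Other genes of mitosis had medians of the same sign as the members at P6. Of all genes, 6.38% were called lower there and 12.5% were lower by adjusted p alone. Of 20 further entry and exit genes 1 was called lower at P6, Ccnf, cyclin F (-0.65 ± 0.09, edgeR adjusted p = 0.000793), and 6 passed by adjusted p alone, with a median of -0.31. Of 35 further kinetochore and checkpoint genes 5 were called lower, led by Knl1, the platform of the outer kinetochore (-1.10 ± 0.19, adjusted p = 0.0023), and Cenpu (-0.82 ± 0.24, adjusted p = 0.0336), with a median of -0.37. Of 28 further spindle and cytokinesis genes 6 were called lower, led by the kinesin genes Kif22 (-0.75 ± 0.16, adjusted p = 0.00824) and Kif14 (-0.73 ± 0.13, adjusted p = 0.0023), with a median of -0.37. At P8 the kinetochore list had 2 called lower, Spc24 (-0.94) and Hjurp (-0.73), and the spindle list 3, led by Fam83d (-0.85) and Ckap2 (-0.77). Of all genes, 8.37% were called lower at P8. At P1 none of these 3 lists had a called gene, against 0.892% lower and 4.01% higher of all genes.

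The condensin list (8 genes) and the core APC/C subunits (14 genes) had 0 called at any day, with medians at P6 of -0.28 and -0.13. By adjusted p alone 5 and 2 of their genes were lower at P6, against 12.5% of all genes. The 32 genes of DNA replication, which peak in S phase, differed from the members in the sign of their median at P8. At P6 2 were called lower, Rrm1 (-0.98 ± 0.04, edgeR adjusted p = 2.9e-07) and Mcm10 (-0.62 ± 0.10, adjusted p = 0.0017), and the median was -0.24. At P8 2 were called higher, Pcna, the sliding clamp (0.77 ± 0.06, adjusted p = 1.43e-05), and Cdt1, the licensing factor (0.73 ± 0.21, adjusted p = 0.026), and the median was 0.27 where that of the mitotic members was -0.16. Of all genes, 6.38% were called lower at P6 and 11.2% higher at P8. By adjusted p alone 11 of the 32 were lower at P6, against 12.5% of all genes. At P8, 13 were higher and 1 lower by that rule, against 19.6% and 14.8%. For 19 of the 32 the genotype difference rose between P6 and P8, against 12.6% of all genes.

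The list of CDK inhibitors, D cyclins and p53 targets (18 genes) moved in both directions. Ccnd1, cyclin D1, which drives entry into S phase, was higher with the label cKO at P6 (mean 3936 against 1889.6 CPM, log2 fold change 1.06 ± 0.03, edgeR adjusted p = 1.84e-08) and at P8 (1836 against 633 CPM, 1.54 ± 0.03, adjusted p = 2.04e-09). Cdkn2c, an inhibitor of CDK4 and CDK6, was lower at P6 (-0.77 ± 0.07, adjusted p = 6.73e-05), and Cdkn1c, p57, was lower at P8, at a mean of 0.905 against 5.83 CPM (-2.68 ± 0.34, adjusted p = 0.00026). At P1 the 2 called were Cdkn2a (0.93 ± 0.21, adjusted p = 0.0258) and Gadd45a (0.59 ± 0.09, adjusted p = 0.00392), both higher, against 4.01% of all genes.

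**Figure D5:**
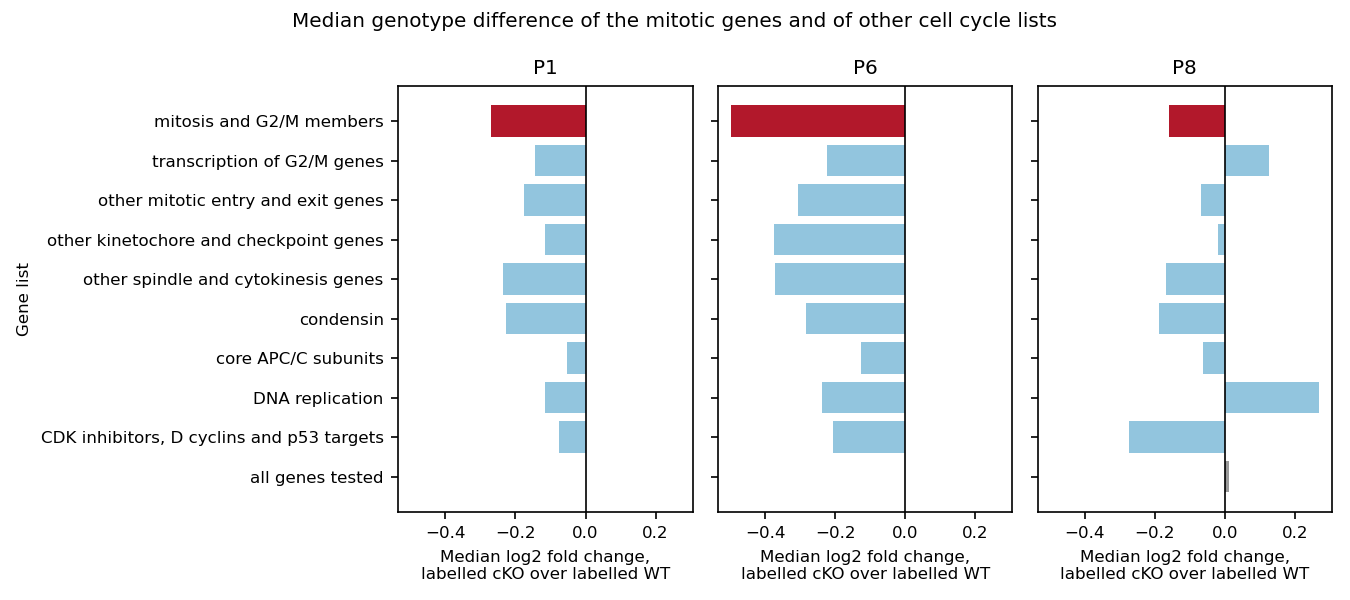
Median log2 fold change, labelled cKO over labelled WT, of the 41 members (first bar), 8 other cell cycle lists and all genes tested (last bar) at P1, P6 and P8. At P6 the members have the lowest median, -0.50, and at P8 DNA replication stands at 0.27 while the members stand at -0.16.

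The make-up of the cultures by marker genes also differed between the groups, and in bulk RNA fewer cells of a type and less RNA per cell cannot be told apart. The summed CPM of 8 fibroblast markers was 2207 to 2401 with the label WT and 5396 to 5696 with the label cKO at P1. It was 17394 to 19296 against 12355 to 12452 at P6, with Lum at 0 in the P6 libraries labelled cKO, and 34221 to 34224 against 17079 to 17539 at P8. This sum was thus lower with the label cKO at P6 and P8 and higher at P1. The median of the members was -0.27, -0.50 and -0.16 at P1, P6 and P8, and its relation to this sum was not tested. The sum of 11 microglia markers was 2847 to 2977 against 3060.5 to 3135 CPM at P6, 4430.1 to 4604 against 3908 to 3956 at P1, and 3030.4 to 3069 against 6261 to 6306 at P8. That of 7 neural stem cell markers was 3852 to 3991 against 6304 to 6449 CPM at P6. It was 3495 to 3527 against 3817 to 4067 at P1 and 2248 to 2273 against 2887 to 2899 at P8. The 10 astrocyte markers were at 1594 to 1966 against 708 to 717 CPM at P8. At P6 their sums overlapped, at 1546 to 1732 against 1444 to 1592, and at P1 they were 2251 to 2296 against 2148 to 2196. The 5 mural markers were at 3172 to 3283 against 3882 to 4437 CPM at P6. They were at 2532 to 2535 against 3706 to 3711 at P1 and at 2270 to 2299 against 2964 to 3001 at P8. The 4 endothelial markers were at 120.04 to 124 against 58.5 to 62.5 CPM at P6. Their order was the reverse at P1, at 23.8 to 25.6 against 47.6 to 50.2, and at P8 they were at 148 to 161 against 36.9 to 39.9. Most of the mural sum at P6 was Acta2 (mean 2044 against 2584 CPM) and Tagln (1176 against 1562). Most of the fibroblast sum was Fn1 at P1 (mean 1888 against 3071 CPM) and at P6 (11649 against 9768). Some markers went against their sum at P6. These were Egfr (314 against 87.4 CPM), Vtn (1.88 against 0.20), Rgs5 (2.66 against 1.31) and Flt1 (36.9 against 53.2), among others. Of the neural stem cell markers 4 were called higher and 1 lower there, and of the mural ones 1 and 2. Also at P6, the oligodendrocyte lineage (9 markers) was at 197.3 to 197.3 against 143 to 154 CPM, ependymal and choroid plexus (6 markers, Tmem212 at 0 with the label WT) at 118 to 133 against 135 to 138, and neuron (2 of 10 markers in the table) at 17.7 to 19.4 against 20.3 to 21.2. At P8 the markers against their sum included Tmem119 (59.8 against 22.9 CPM), Aldh1l1 (51.8 against 72.7), Fn1 (8482 against 8973), Egfr (917 against 109) and Flt1 (5.14 against 19.4). Called there were 5 astrocyte markers lower and 0 higher, 6 fibroblast markers lower and 0 higher, and on the microglia list 8 higher and 1 lower. Of all genes, 8.37% were called lower and 11.2% higher at P8. At P1 Gfap (396 against 569 CPM) was among those against their sum. The part of these differences in the values of the mitotic genes was not tested.

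Outside the lists, the genes whose log2 CPM over the 12 libraries followed the mean of the members most closely were Cstf2t (Pearson r 0.941), Tmem242 (0.938), Calm3 (0.925), Fam76a (0.901) and Vps52 (0.9003), followed by C330027C09Rik, Dpyd, Gm9869, Gm11223 and Ier5l (0.882). They were picked as the highest of all tested genes, so these values describe the libraries and carry no test. At P6 the log2 fold changes of the 10 ran from -0.87 (Gm9869, at a mean of 1.26 CPM) to -0.17 (Cstf2t). They were picked for following a mean that was itself lower with the label cKO at P6, so these differences are not a separate result.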

How the data were processed

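RNA-seq counts of 12 libraries in 6 groups of 2 were used. The authors deposited whole-number counts of reads per gene, not normalized, after mapping with HISAT2 to the GRCm38 (mm10) build. The counting program, its annotation and its strand setting were not given in the sources used here. Reads of overlapping or near-identical genes may have been assigned to either. Genes passing filterByExpr were fitted in R 4.3.3 with edgeR 4.0.16 (TMM, 1 mean per group, all 12 libraries, quasi-likelihood test), with Benjamini-Hochberg adjustment of p over 17938 genes. A gene was called at an adjusted p below 0.05 with at least a 1.5-fold change, interaction terms by adjusted p alone. The study's methods state a p cut-off and the same fold without saying whether p was adjusted, and that cut-off was an alternative.

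Library totals were 54413504 to 89183250 (median 67180944.5), TMM factors 0.943 to 1.07, the common biological coefficient of variation 0.178, and Spearman correlations of replicates across genes 0.991 to 0.993. Replicates differed by more than counting noise (chi-square per degree of freedom 30.5 to 47.1). Standard errors are those implied by the quasi-likelihood test. CPM values use TMM-scaled totals. Promoters came from RefSeq and positions from GENCODE vM21, both on GRCm38.

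Values in every library are given for the 2 members of highest mean CPM in each role, the 2 largest falls and rises called at each day, and the 2 largest interaction terms each way between P1 and P8. Of the other lists, the 2 called genes of largest change at each day are named, as are Foxm1, Mybl2 and the 10 genes that followed the members' mean most closely. Single genes outside these rules were named after their values were seen. The members, lists and rules were chosen with earlier results of these data known. The alternatives were DESeq2 size factors, library totals, no filter, the replicate number as a block, DESeq2 1.42.0, the compared groups alone, a fold of 2, the unadjusted cut-off and each library left out, where a lone remaining library was taken to vary as the other groups do. The adjusted p with no fold condition and the overlap of libraries were added after seeing the data. Both fitting steps were first tested on simulated data. Of the marker lists, Abcc9, Cldn5, Dcx, Emcn, Gad1, Gad2, Gjb6, Hes5, Kcnj8, Mog, Neurod2, Neurod6, Pecam1, Prlr, Rbfox3, Slc17a7 and Snap25 were not analysed here, and Itgam had 2 identifiers, both summed.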

Additional observations from a re-analysis of the deposited data

Results flagged for a closer look

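For 23 terms over 18 of the 41 genes, the test of the interaction itself found that the difference between the labels changed from one day to another (edgeR's quasi-likelihood test, adjusted p below 0.05). From P6 to P8 the term rose for 36.6% of the members, against 12.6% of all genes. From P1 to P6 it fell for 7.32%, against 8.19% of all genes. From P1 to P8 it rose for 9.76% and fell for 2.44%, against 14% and 11.7%. Only the rises from P6 to P8 were thus more frequent among the members than among all genes. No explanation of these was tested. From P6 to P8 the log2 fold change, labelled cKO over labelled WT, rose by 1.14 for Ndc80, 0.86 for Aurkb, 0.81 for Espl1, 0.76 for Cdca8, 0.72 for Incenp, 0.59 for Plk1 and 0.59 for Mki67. Smaller rises were 0.54 for Kif11, 0.53 for Kif4, 0.53 for Cenpa, 0.51 for Ccna2, 0.44 for Birc5, 0.40 for Bub1b, 0.29 for Tpx2 and 0.27 for Top2a. From P1 to P6 the term was -0.58 for Kif4, -0.47 for Cdc20 and -0.40 for Kif20a. From P1 to P8 it was 0.74 for Ndc80, 0.67 for Espl1, 0.44 for Incenp, 0.38 for Mki67 and -0.52 for Hmmr. The 15 terms from P6 to P8 and the 3 from P1 to P6 share the P6 libraries and are not separate evidence.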

How the results depend on the processing

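The condition on the fold moved many of the counts. At a fold of 2, 0 genes were called lower with the label cKO at P6 and 0 at P8. With the label WT, 3 were higher and 0 lower from P1 to P6 and 1 lower from P6 to P8. With the label cKO these were 1 higher and 0 lower and then 0 lower. The share of all genes at a fold of 2 was not counted, so these counts cannot be set against genes at large. With no fold condition, the counts were 6 lower at P1, 30 lower at P6, 9 lower and 1 higher at P8, 23 higher and then 31 lower in the steps of the label WT, and 13 higher and 5 lower and then 1 higher and 12 lower in those of the label cKO. Over 18 alternatives the 6 lay between 2 and 12, the 30 between 24 and 33, the 9 between 7 and 12, the 23 between 14 and 24, the 31 between 23 and 31, the 13 between 7 and 15, the 5 between 3 and 8 and the 12 between 7 and 14. By unadjusted p the interaction terms gave 1 higher and 12 lower from P1 to P6 (13.4% and 14% of all genes) and 3 lower from P1 to P8 (16.6%). DESeq2 size factors, library totals and DESeq2 each gave 2 lower from P1 to P8, against 12.2%, 12.5% and 12.9% of all genes. DESeq2 gave 6 lower from P1 to P6, against 8.97% of all genes. On the compared groups alone, 2 were higher from P1 to P6 with the label cKO, 1 term was lower from P1 to P6 and 9 higher from P6 to P8. Library totals moved the median at P8 to -0.22, reversed Cdk1 at P6 (-0.012) and Pttg1 at P8 (-0.040) and brought Top2a at P6 past the fold (-0.60), and Ccna2 at P6 fell under it with DESeq2 size factors (-0.58) and in DESeq2 (-0.58). The cause of these moves was not tested. Samples with the same replicate number did not deviate together (correlations from -0.0638 to 0.0396 over 15 pairs of groups, 0 above 0.1), so they share only a number. With the replicate number as a block, 12 genes were called lower at P6, 1 at P8 and 0 at P1, 13 terms were higher from P6 to P8, the medians were -0.28, -0.50 and -0.16 at P1, P6 and P8, and no count moved by over 1.5 times.

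With each library left out in turn, the genes called lower with the label cKO numbered 0 to 1 at P1, 9 to 14 at P6 and 0 to 1 at P8, and the medians ran from -0.30 to -0.22, from -0.53 to -0.46 and from -0.18 to -0.13. With the label WT, 8 to 9 were higher from P1 to P6 and 12 to 16 lower from P6 to P8, and with the label cKO, 2 to 7 were higher and then 0 to 2 lower. The interaction terms gave 0 to 1 higher and 0 to 3 lower from P1 to P6, 7 to 14 higher from P6 to P8, and 2 to 4 higher and 0 to 1 lower from P1 to P8. Values near 0 changed sign within these ranges: at P1 Ccnb1 -0.27 to 0.049, Pttg1 -0.048 to 0.0097, Hmmr -0.10 to 0.22 and Anln -0.24 to 0.035, at P6 Cdk1 -0.059 to 0.11, Pttg1 -0.033 to 0.15 and Prc1 -0.59 to 0.094, and at P8 Pttg1 -0.060 to 0.11, Tpx2 -0.092 to 0.023, Aurkb -0.18 to 0.048, Ccna2 -0.19 to 0.013, Cdk1 -0.063 to 0.18 and Cdca8 -0.033 to 0.010.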
